A study of Mus musculus with 6 samples.

Results

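The genotype difference under 20(OH)7DHC was read from 1 pair of libraries of mouse dermal fibroblasts, 1 labelled RORγ-/- and 1 labelled RORγ+/+. Both cultures had received 20-hydroxy-7-dehydrocholesterol, written 20(OH)7DHC. Of 45897 table rows with a single gene symbol, 8829 reached at least 5 FPKM (sequenced fragments per kilobase of transcript, scaled to library depth) in at least 1 of the 2 libraries, and these rows are described here. The measure was the log2 ratio of FPKM + 1, knockout-labelled over wild type, called the genotype ratio below, and a ratio of at least 1 or at most -1 was called past 2-fold. Of the 8829 rows, 7431 reached 5 FPKM in both libraries, 875 in wild type alone and 523 in the knockout-labelled library alone. The 278 rows just under this limit, with 4.5 to 5 FPKM in the higher library, had a median genotype ratio of -0.04, as did the 267 rows just above it, with 5 to 5.5 FPKM.

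The study held 6 libraries, 1 for each of the 2 genotypes with each of 3 sterols: 20(OH)7DHC, 20(OH)L3 (20-hydroxylumisterol) and 20(OH)Cholesterol. Fibroblasts came from the dermis of mice aged 1 to 2 days, cells of different mice were pooled, and early passages were used. All 6 cultures had the sterol at 100 nM for 24 h in 0.1% ethanol and medium with 10% charcoal-stripped serum, and no vehicle library was analysed here. Lumisterol is a stereoisomer of 7-dehydrocholesterol, and cholesterol lacks one of its ring double bonds. With 1 library per group there is no replicate, so every value below describes these libraries, no test was made, and whether a genotype ratio differed between sterols was not tested. Where 3 values are given for a genotype, they stand in the order 20(OH)7DHC, 20(OH)L3, 20(OH)Cholesterol.

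RORγ is a nuclear receptor that binds sterol intermediates and their hydroxylated products and activates genes through response elements in the DNA. Its immune form is best known for driving interleukin 17 production in T cells, and a broader form is present in many tissues, where it takes part in circadian and metabolic control. Dermal fibroblasts make the collagen matrix of skin, and they answer injury and infection with chemokines, interferon-induced proteins and contractile proteins.

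The sequences below are shown because interferon-induced genes were among those with the lowest genotype ratios. All 19 kept genes of the mitosis list also read lower past 2-fold in the knockout-labelled library. Of the kept genes of the interferon and mitosis lists, 22 of 29 and 17 of 19 reached 5 FPKM in wild type alone. Those genes had to read lower. Each is the 250 bases before the gene's start in RefSeq (GRCm38.p6), printed 5′ to 3′ on the gene's strand. In the first 3 the capitals mark GAAANNGAA on either strand, the core of the interferon-stimulated response element. They lie at chr19:34583279-34583528 (plus strand, Ifit3), chr4:156200819-156201068 (minus strand, Isg15) and chr5:92348890-92349139 (minus strand, Cxcl10).
Ifit3: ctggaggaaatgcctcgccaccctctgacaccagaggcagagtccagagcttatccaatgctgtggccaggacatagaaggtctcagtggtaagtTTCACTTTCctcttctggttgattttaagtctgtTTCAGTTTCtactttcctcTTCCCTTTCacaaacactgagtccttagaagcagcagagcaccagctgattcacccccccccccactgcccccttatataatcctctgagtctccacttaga
Isg15: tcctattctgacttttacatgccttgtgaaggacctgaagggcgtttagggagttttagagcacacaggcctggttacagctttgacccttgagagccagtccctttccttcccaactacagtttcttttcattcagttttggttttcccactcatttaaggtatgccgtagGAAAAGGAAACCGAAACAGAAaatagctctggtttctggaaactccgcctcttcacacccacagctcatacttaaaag
Cxcl10: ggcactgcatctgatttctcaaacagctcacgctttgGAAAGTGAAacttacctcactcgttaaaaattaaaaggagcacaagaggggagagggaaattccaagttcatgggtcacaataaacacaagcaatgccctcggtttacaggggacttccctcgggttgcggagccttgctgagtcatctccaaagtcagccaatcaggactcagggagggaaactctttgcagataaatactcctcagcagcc
In the other 2 the capitals mark TTTGAA on either strand, the core of the cell-cycle genes homology region. They lie at chr10:69352913-69353162 (minus strand, Cdk1) and chr4:118437344-118437593 (minus strand, Cdc20).
Cdk1: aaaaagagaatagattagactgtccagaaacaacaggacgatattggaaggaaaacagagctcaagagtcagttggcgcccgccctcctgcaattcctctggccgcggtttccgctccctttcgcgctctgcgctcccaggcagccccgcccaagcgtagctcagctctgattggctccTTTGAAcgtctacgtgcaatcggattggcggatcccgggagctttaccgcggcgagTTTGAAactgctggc
Cdc20: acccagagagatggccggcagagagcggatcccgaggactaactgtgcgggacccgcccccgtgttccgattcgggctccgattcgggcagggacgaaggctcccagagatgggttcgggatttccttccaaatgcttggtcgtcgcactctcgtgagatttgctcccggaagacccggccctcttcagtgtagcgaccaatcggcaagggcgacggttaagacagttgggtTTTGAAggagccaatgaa

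Ifit3 held 3 copies of its motif, beginning 155, 121 and 102 bases before the start. Isg15 held 3 copies that overlap in 1 run, Cxcl10 held 1, Cdk1 held 2 and Cdc20 held 1, beginning 18 bases before the start. Over windows of 300 bases (250 before and 50 after the start), GAAANNGAA was present for 14 of 22 interferon-list genes that have a window. It was present for 9.76% of 27025 gene symbols and for 0 of 12 genes of the chemokine list. Cxcl10, a chemokine whose promoter is printed above with the motif, is not among those 12. TTTGAA was present for 12 of 15 mitosis genes, against 20.2% of symbols, and CCAAT, spelled as its name, for 13 of 15, against 41.1%. For the DNA replication list the share with TTTGAA was 3 of 20. The motifs were chosen after the values were seen, both strands were searched, and a match describes the letters only.

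With 20(OH)7DHC, 417 of 8829 rows were higher past 2-fold in the knockout-labelled library (4.72%) and 929 were lower (10.5%), 1346 in all (15.2%). The same rows gave 1501 higher (17.0%) and 1411 lower (16.0%) with 20(OH)L3, and 1289 higher (14.6%) and 1320 lower (15.0%) with 20(OH)Cholesterol. In all, 2912 rows (33.0%) were past 2-fold with 20(OH)L3 and 2609 (29.6%) with 20(OH)Cholesterol. The 20(OH)7DHC pair thus had fewer rows past 2-fold in both directions, and its lower rows outnumbered its higher rows by 929 to 417, whereas the counts of the 2 directions lay close together in the other pairs. The middle of the distribution was narrower too: the quartiles of the genotype ratio were -0.36 and 0.35, against -0.64 and 0.69 with 20(OH)L3 and -0.60 and 0.64 with 20(OH)Cholesterol.

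The narrower middle went with transcript length. Among 338 protein-coding genes with a longest transcript under 1 kb, the median genotype ratio was 0.06 with 20(OH)7DHC, 1.34 with 20(OH)L3 and 1.15 with 20(OH)Cholesterol. For the 922 longest genes, with transcripts of at least 6 kb, the medians were 0.06, -0.36 and -0.37. Across 7897 protein-coding genes, Spearman's correlation of ratio with length was 0.0019, -0.34 and -0.35, as a description over genes of shared libraries. Of the short genes, 17 were higher past 2-fold with 20(OH)7DHC (5.03%), against 212 with 20(OH)L3 (62.7%) and 188 with 20(OH)Cholesterol (55.6%).

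**Figure D1:**
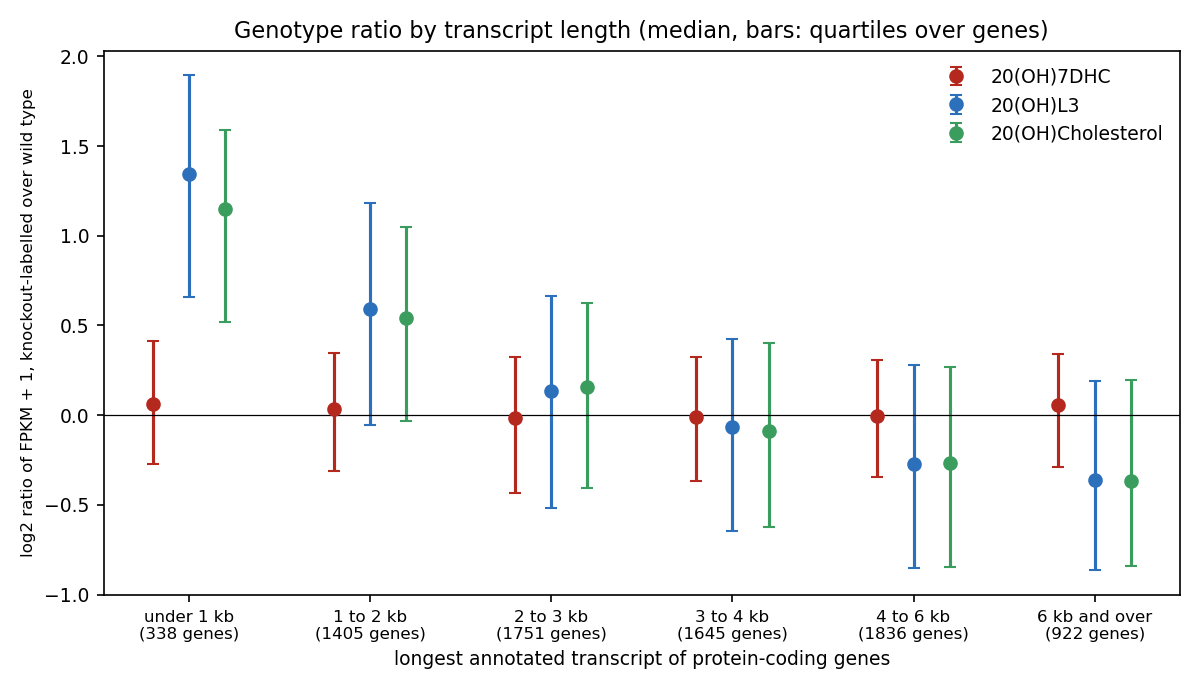
Median genotype ratio (log2 of FPKM + 1, knockout-labelled over wild type) of protein-coding genes in 6 classes of transcript length, for the 3 sterols. Points are medians and bars the quartiles over genes. The 20(OH)7DHC medians stay between -0.02 and 0.06 in all classes, while the other 2 run from above 1 to below -0.3.

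The length pattern lay between the knockout-labelled libraries. In short genes (under 1 kb) the knockout-labelled 20(OH)7DHC library read a median of -1.36 on the log2 scale against the knockout-labelled 20(OH)L3 library and -1.14 against 20(OH)Cholesterol. The same medians in wild type were -0.08 and 0.01. Between wild-type libraries, 210 rows (2.38%) were past 2-fold for 20(OH)7DHC over 20(OH)L3 and 144 (1.63%) over 20(OH)Cholesterol. Between knockout-labelled libraries the counts were 2138 (24.2%) and 1851 (21.0%). Depth moved with this split: the estimated number of fragments was 13200000 and 13400000 in the 20(OH)7DHC pair and 12600000 and 13100000 in the other wild-type libraries, but 9100000 and 7800000 in the other knockout-labelled ones. The part of depth in these counts was not tested. In the 20(OH)7DHC pair, 5 FPKM at the median length of 3250 nt stood for an estimated 201 and 204 fragments, with a 95% Poisson range of 4.33 to 5.74 FPKM that covers counting error only.

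The respiratory chain and the ribosome are groups of short genes. Of 44 kept genes of the respiratory chain, the mitochondrial complexes that make ATP, 0 were past 2-fold with 20(OH)7DHC in either direction, with a median ratio of 0.04. With the other sterols 34 and 34 were higher, with medians of 1.58 and 1.51, and the median transcript length of the list was 870 nt. With the length trend removed from each ratio, the 3 medians were -0.03, 0.59 and 0.56. Ndufb10, a complex I subunit, read 79.7, 110.1 and 80.9 FPKM in wild type and 131, 473 and 468 in the knockout-labelled libraries. Ndufv3, another complex I subunit and the lowest of the list, read 176, 200 and 195 against 122, 444 and 381. In both genes the knockout-labelled 20(OH)7DHC value was the nearest to wild type.

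Of 32 cytosolic ribosomal protein genes, with a median length of 1082.5 nt, 1 was higher with 20(OH)7DHC, against 23 and 23 with the others, and the medians were 0.40, 1.64 and 1.34. That gene was Rplp0, a stalk protein of the large subunit, at 622, 724 and 631 FPKM in wild type and 1437, 2307 and 1576.5 in the knockout-labelled libraries. Rpl11 was at the other end of the list, at 24.5 and 16.3 FPKM in the 20(OH)7DHC pair, a ratio of -0.56 against 1.52 and 1.15. Of the 32, 1 was kept through the knockout-labelled library alone and had to read higher. Reads of ribosomal protein genes can be shared with pseudogene copies, so these levels are uncertain. With the length trend removed from each ratio, the medians of the ribosomal list were 0.38, 0.63 and 0.59.

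Many rows were past 2-fold in the same direction with all 3 sterols, 156 higher (1.77%) and 567 lower (6.42%). Rows past 2-fold with 20(OH)7DHC and within 2-fold with both others numbered 139 higher (1.57%) and 162 lower (1.83%). Rows within 2-fold with 20(OH)7DHC but higher with both others numbered 821 (9.3%), with a median length of 1702 nt among the protein-coding ones, and those lower with both others 357 (4.04%), with a median length of 4611 nt. Across the 7897 protein-coding genes, Pearson's r of the 20(OH)7DHC ratio was 0.71 with each of the other ratios and 0.88 between those 2. With the length trend removed from each ratio the values were 0.76, 0.75 and 0.87, all as descriptions over genes.

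The lowest genotype ratios belonged to inflammatory and interferon-induced genes. Saa3, an acute-phase serum amyloid, read 5765, 6163 and 10480.0 FPKM in wild type and 0.258, 45.6 and 35.6 FPKM in the knockout-labelled libraries. It had the lowest ratio of the named genes, -12.16, and its ratios with the other sterols were -7.05 and -8.16. Cxcl10, an interferon-induced chemokine for T cells, read 329, 253 and 333 FPKM in wild type and was listed at 0 in the knockout-labelled 20(OH)7DHC library, with 2.59 and 0.521 in the others. The wild-type levels lay within 2-fold of each other for both genes, and the knockout-labelled 20(OH)7DHC library was the lowest of all 6.

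Ccl2, the chemokine that draws monocytes, read 3933, 3986 and 4001 FPKM in wild type and 17.1, 53.3 and 657 in the knockout-labelled libraries. Here the 3 knockout-labelled values were spread widely, and the ratio was -7.76 with 20(OH)7DHC against -6.20 and -2.60. Ccl20, a chemokine of the CCR6 receptor, showed the same order, at 33.3, 35.5 and 23.5 FPKM in wild type and 0.132, 5.79 and 12.9 in the others. Cxcl5 and Lcn2, a neutrophil chemokine and a siderophore-binding protein, had the same order with other distances: their knockout-labelled values were 0.135, 0.160 and 3.19 FPKM for Cxcl5 and 0.139, 0.187 and 1.08 FPKM for Lcn2, so that 20(OH)7DHC and 20(OH)L3 lay close together. Of 20 kept chemokine and cytokine genes, 14 were lower past 2-fold and 1 was higher, with a median of -4.06 against -3.58 and -2.44. Of the 20, 9 were kept through wild type alone and 2 through the knockout-labelled library alone. The higher one was Il11, a cytokine of the interleukin 6 family, at 4.82 and 20.1 FPKM in the pair. Il11 was kept through the knockout-labelled library alone and so had to read higher.

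Isg15, a ubiquitin-like protein induced by interferon, read 298, 287 and 315 FPKM in wild type and 0.813, 8.15 and 3.03 FPKM in the knockout-labelled libraries. Ifit3, an interferon-induced RNA-binding family member, read 124, 112 and 120 FPKM against 0.194, 0 and 0.0834. The promoters of both are printed above. Irf7, the transcription factor that sustains interferon production, read 322, 288 and 392 FPKM against 1.96, 4.20 and 1.52. Of 29 kept genes of the interferon list, 0 were higher and 27 lower with 20(OH)7DHC, and the medians of the 3 ratios were -4.18, -3.96 and -4.20. The 2 genes within 2-fold were Ifi27, at -0.82, and Isg20, at -0.66. Of the 29, 22 reached 5 FPKM in wild type alone and so had to read lower in the knockout-labelled library. The list's median was thus nearly the same in all 3 pairs, while for Cxcl10 and Isg15 the 20(OH)7DHC ratio was the lowest of the 3.

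Oasl2, an oligoadenylate synthetase-like protein, had ratios of -7.01, -5.93 and -7.09, so that the 20(OH)Cholesterol ratio was slightly lower. Ifit1 had -6.71, -5.89 and -6.67. Ccl8, another monocyte chemokine, had -7.05, -6.56 and -7.10, and C3, the central complement component, -6.50, -4.49 and -6.05. Of 10 kept acute-phase and complement genes, 9 were lower and 0 higher in each pair, and the 20(OH)7DHC median was -5.53. Of these 10, 8 were kept through wild type alone and had to read lower.

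Antigen presentation genes were lower with all 3 sterols. Of 13 kept genes, 5 of them kept through wild type alone, 12 were lower past 2-fold with 20(OH)7DHC, against 10 and 10, while the medians were -2.91, -3.38 and -2.98. H2-K1, a class I heavy chain, read 819 and 35.9 FPKM in the 20(OH)7DHC pair, and its near-identical relatives make its level uncertain. Psmb10, an immunoproteasome subunit, read 159, 140 and 152 FPKM in wild type and 45.5, 216 and 171 in the knockout-labelled libraries. Psme1, a proteasome activator subunit, read 159, 154 and 120 FPKM against 64.0, 177 and 104. For both genes the knockout-labelled 20(OH)7DHC library alone was low, with ratios of -1.78 and -1.30. Their transcripts measure 1311 and 1986 nt, a length class in which the other 2 ratios were raised, and the part of length in this difference was not tested.

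**Figure D2:**
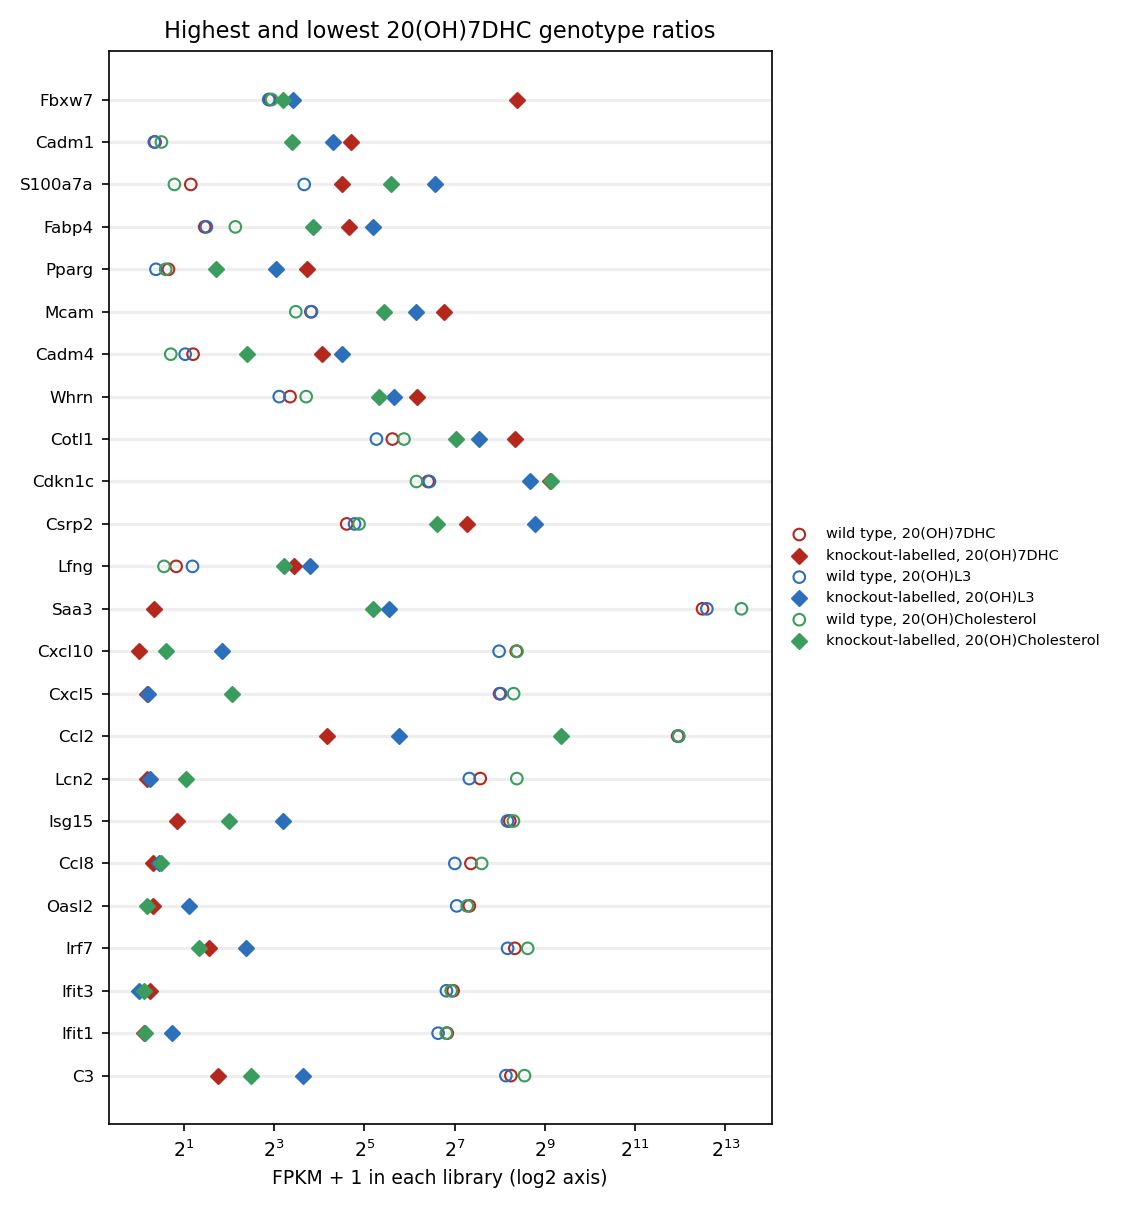
FPKM + 1 on a log2 axis in each of the 6 libraries, for the 12 named genes with the highest and the 12 with the lowest genotype ratio under 20(OH)7DHC. Open circles are wild type and filled diamonds knockout-labelled, coloured by sterol. Wild-type values lie close together in most rows, Fbxw7 is high in the knockout-labelled 20(OH)7DHC library alone, and Saa3 is lowest there.

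Among the highest ratios, Fbxw7 stood alone. This F-box protein, which selects cyclin E and MYC for degradation, read 6.48, 6.36 and 6.71 FPKM in wild type and 331, 9.63 and 8.22 FPKM in the knockout-labelled libraries. Its ratios were 5.47, 0.53 and 0.26, so 1 library holds the whole difference, and no second library tells whether it would recur. The gene spans chr3:84815268-84979198 (GRCm38, plus strand) with a longest transcript of 4473 nt.

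The other 11 named genes were higher in the knockout-labelled library with every sterol. Cadm1, an adhesion molecule of the immunoglobulin superfamily, read 0.287, 0.271 and 0.419 FPKM in wild type and 24.9, 18.8 and 9.47 FPKM in the knockout-labelled libraries. Pparg, the nuclear receptor that drives fat cell formation, read 0.581, 0.304 and 0.514 FPKM against 12.3, 7.30 and 2.30. Mcam, an adhesion molecule of vessel wall cells, read 13.1, 13.2 and 10.2 FPKM against 108, 69.9 and 42.4. In all 3 genes the 20(OH)7DHC library was the highest and the 20(OH)Cholesterol library the lowest of the knockout-labelled ones.

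Whrn, a scaffold protein of hair cell stereocilia, and Cotl1, an actin-binding protein, had the same order, with ratios of 2.82, 2.54 and 1.62 for Whrn and 2.72, 2.27 and 1.15 for Cotl1. Fabp4, a fatty acid carrier, had another order: 1.76, 1.83 and 3.42 FPKM in wild type against 24.2, 35.3 and 13.6. Cdkn1c, a cyclin-dependent kinase inhibitor encoded at an imprinted locus, read 84.2, 86.0 and 70.2 FPKM against 555, 405 and 564, with little spread between sterols. S100a7a, an antimicrobial protein of stressed skin, read 1.23, 11.7 and 0.731 FPKM in wild type, and its wild-type values were the most spread of the 12. Cadm4, Csrp2 and Lfng had 20(OH)7DHC ratios of 2.86, 2.66 and 2.62.

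Of 9 kept genes of the adipogenic and lipid storage list, 5 were higher and 0 lower with 20(OH)7DHC, and 3 of the 9 were kept through the knockout-labelled library alone and had to read higher. Lpl, the lipase that frees fatty acids from lipoproteins, read 2.44 and 18.8 FPKM in the pair. The summed level of 7 adipocyte markers was 2.34 FPKM in wild type and 36.6 in the knockout-labelled library. Fabp4 and Pparg made up nearly all of it, while Plin1, Cidec, Lep and Retn were listed at 0 in both libraries and Adipoq at 0 and 0.0687. In bulk libraries, fewer cells of a type and less RNA per cell cannot be told apart.

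Contractile genes were higher in all 3 pairs, 7 of 16 with 20(OH)7DHC and 0 lower. Of the 16, 1 was kept through the knockout-labelled library alone and had to read higher. Tpm2, a tropomyosin, read 330, 411 and 288 FPKM in wild type and 1390.2, 2898 and 2485.5 in the knockout-labelled libraries. Acta2, smooth muscle actin, read 2507, 2787 and 2206 FPKM against 7181, 7769 and 9075. Cnn1, a calponin, differed: it was higher past 2-fold with 20(OH)Cholesterol, at 1.07, but had -0.23 with 20(OH)7DHC. The list's median was 0.92, 0.97 and 1.33. The sum of 10 pericyte and smooth muscle markers, which include Acta2, was 3913 FPKM in wild type and 9986 in the knockout-labelled 20(OH)7DHC library. Of the 10, 5 were kept, 1 of them through wild type alone, with 2 higher and 0 lower past 2-fold. Rgs5, Kcnj8 and Abcc9, pericyte markers, were at most 1.13 FPKM in both libraries. Myh11 and Cspg4, which also define this list, are not given here.

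Cell-cycle genes were lower in the knockout-labelled libraries with all 3 sterols. Of 27 measured mitosis genes 19 were kept, and 19 were lower past 2-fold, against 16 and 16, with medians of -2.04, -1.77 and -1.55. Of the 19, 17 were kept through wild type with 20(OH)7DHC alone and had to read lower in that pair, so these counts do not rank the sterols. Cdk1, the kinase that starts mitosis, read 80.0, 59.9 and 83.0 FPKM in wild type and 18.7, 19.5 and 22.9 FPKM in the knockout-labelled libraries. Cdc20, an activator of the anaphase-promoting complex, read 17.7, 18.1 and 16.1 FPKM against 4.26, 10.6 and 12.6. Cdk1 was thus lower by a like amount in every pair, and Cdc20 was past 2-fold only in the 20(OH)7DHC pair. Both promoters are printed above.

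The lowest of the list was Cenpf, a kinetochore protein, at 6.19 and 0.186 FPKM in the pair, and the least low was Kif20a, a mitotic kinesin, at 12.7 and 4.05 FPKM. Of 24 kept DNA replication genes, 8 of them kept through wild type alone, 18 were lower and 0 higher with 20(OH)7DHC, against 10 lower with 20(OH)L3 and 15 with 20(OH)Cholesterol. Tyms, thymidylate synthase, read 55.5, 48.2 and 54.9 FPKM in wild type and 11.6, 62.9 and 16.5 in the knockout-labelled libraries. Chtf18, a clamp loader protein, read 21.3, 14.4 and 16.4 FPKM against 4.48, 17.1 and 17.2, and was low in the knockout-labelled 20(OH)7DHC library alone.

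Collagens and matrix proteins had fewer lower genes with 20(OH)7DHC than with the other sterols, whereas matrix proteases and their inhibitors did not. Of 14 kept collagen genes, 2 of them kept through wild type alone, 5 were lower and 2 higher. The other pairs had 9 and 8 lower and 0 higher, and the medians were -0.59, -1.50 and -1.21. Col1a2, a chain of type I collagen, read 988, 881 and 1062 FPKM in wild type and 95.6, 51.5 and 182 in the knockout-labelled libraries. Col4a2, a chain of basement membrane collagen, read 81.4, 69.8 and 75.4 FPKM against 203, 80.0 and 96.1. Col4a1 followed it, with ratios of 1.08, 0.46 and 0.51. The collagen list had a median length of 6190 nt, a class in which the other 2 ratios were lowered as a whole. With the length trend removed from each ratio, its medians were -0.60, -1.14 and -0.87.

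Of 28 kept matrix protein and crosslinking genes, 8 of them kept through wild type alone, 13 were lower and 1 higher with 20(OH)7DHC, against 18 and 18 lower. Dcn, the small proteoglycan decorin and a fibroblast marker, read 1148, 1254 and 1489 FPKM against 16.6, 21.2 and 5.74. Fn1, fibronectin, read 916, 917 and 961 FPKM in wild type and 1890.0, 593 and 936 in the knockout-labelled libraries, and was the 1 higher gene. Its knockout-labelled 20(OH)7DHC value lay above all 5 other libraries. Of 20 kept matrix proteases and inhibitors, 4 of them kept through wild type alone, 10 were lower and 0 higher, against 9 and 6 lower, with medians of -0.83, -0.77 and -0.70. Timp1, an inhibitor of matrix metalloproteinases, read 2045, 2084 and 2220.5 FPKM in wild type against 584, 2096 and 2132. Timp1 was within 2-fold in both other pairs, its transcript measures 883 nt, and it was named after its values were seen. Mmp3, a stromelysin, read 44.2 and 0.141 FPKM in the 20(OH)7DHC pair.

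Immediate early and hypoxia genes were more often lower than higher past 2-fold in all 3 pairs. Of 23 immediate early genes, 12 were lower with 20(OH)7DHC, against 17 and 14, and 1 of the 23 was kept through wild type alone. Egr1, a zinc finger factor induced by serum, read 203, 228 and 227 FPKM in wild type and 12.5, 7.63 and 10.3 in the knockout-labelled libraries. Of 26 hypoxia and glycolysis genes, 14, 15 and 14 were lower in the 3 pairs, and 1 of the 26 was kept through wild type alone. Vegfa, the vessel growth factor, was at 129, 140 and 175 FPKM against 117, 46.4 and 44.4, and within 2-fold in the 20(OH)7DHC pair only. Of 21 genes of the integrated stress response and serine synthesis, 6 were higher and 1 lower, against 9 and 1 with 20(OH)L3 and 5 and 2 with 20(OH)Cholesterol. Trib3, a pseudokinase of that response, read 18.3 and 69.9 FPKM in the pair.

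The cholesterol synthesis list, like the respiratory chain, had no gene past 2-fold in the 20(OH)7DHC pair. Of 18 kept cholesterol synthesis genes, 0 were past 2-fold with 20(OH)7DHC and the median was 0.00, whereas 5 were higher with 20(OH)Cholesterol and 1 higher and 1 lower with 20(OH)L3. Of 11 LXR target and oxysterol genes, 4 were lower and 0 higher, against 3 and 3 lower and 0 higher with the other sterols. Of the 11, 3 were kept through wild type alone and had to read lower. Ch25h, the enzyme that makes an antiviral oxysterol and is itself induced by interferon, read 187, 162 and 231 FPKM against 1.50, 1.44 and 5.39. Of 13 clock genes, 4 were lower and 1 was higher, namely Arntl, a core activator of the clock, at 10.5 and 30.0 FPKM. The other pairs had 5 and 6 lower and 0 higher. Of the 13, 5 were kept through wild type alone and 2 through the knockout-labelled library alone.

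Positional genes did not follow 1 direction. Of 19 kept HOX genes, which record body position, 5 were higher and 3 lower with 20(OH)7DHC. Of the 19, 3 were kept through wild type alone and 3 through the knockout-labelled library alone. Hoxa10 and Hoxa11 read 24.7 and 13.2 FPKM in wild type and 1.04 and 0.237 in the knockout-labelled library, while Hoxd8 read 2.37 and 9.04. Of 15 other positional transcription factors, 3 were kept through wild type alone and 2 through the knockout-labelled library alone. Of the 15, 6 were lower and 1 higher, with a median of -0.78, against 4 and 7 lower and 1 and 1 higher. The higher one, Tbx15, a limb and skin patterning factor, read 11.2, 10.4 and 10.3 FPKM against 31.2, 76.5 and 77.9. Wisp2, of the Wnt list, read 363 and 14.7 FPKM in the pair.

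**Figure D3:**
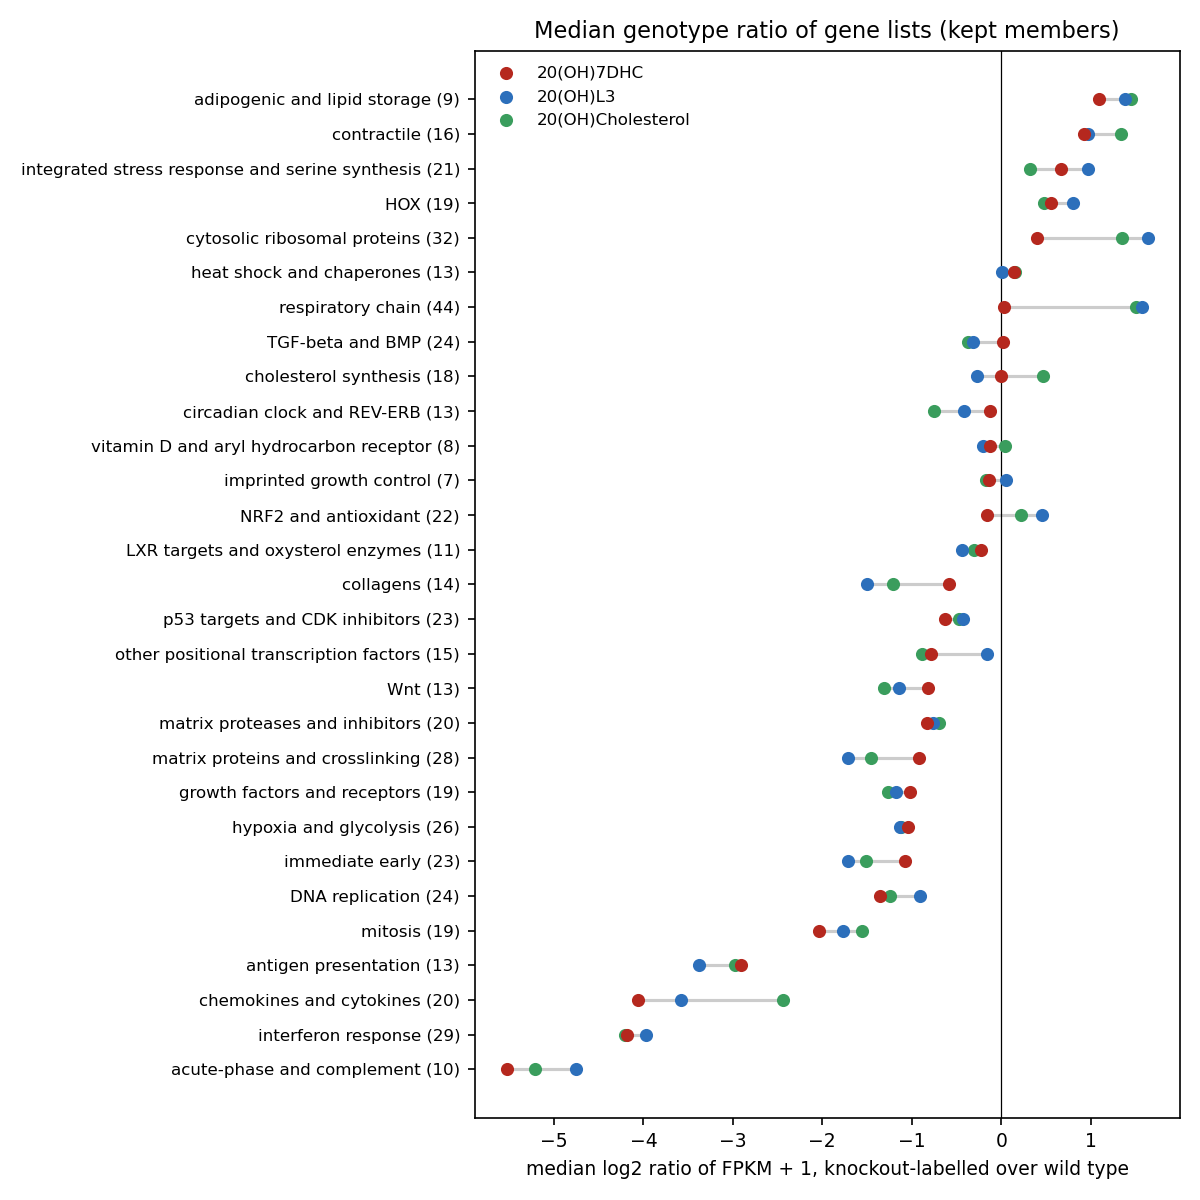
Median genotype ratio of the kept members of 29 gene lists, with the number of kept members in brackets, for the 3 sterols. The 20(OH)7DHC median is nearest 0 for the respiratory chain, ribosomal proteins, collagens and matrix proteins. It lies below both others for mitosis, DNA replication, chemokines and acute-phase genes. In these lists 17 of 19, 8 of 24, 9 of 20 and 8 of 10 kept members reached 5 FPKM in wild type with 20(OH)7DHC alone. Those members had to read lower in that pair, so these medians do not rank the sterols.

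Rows in which the 20(OH)7DHC ratio lay at least 1 log2 unit above both other ratios numbered 425 (4.81%), and 781 lay as far below both (8.85%). In 97.2% of the first and 91.5% of the second, the knockout-labelled library departed further from its counterparts than the wild-type library did. Among protein-coding genes the first had a median length of 4793.5 nt and the second of 1613 nt. The named examples were taken from transcripts of 1 to 6 kb.

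Wac, an adaptor of histone ubiquitination, read 55.9, 47.2 and 56.8 FPKM in wild type and 63.9, 8.77 and 7.30 FPKM in the knockout-labelled libraries. Hnrnpf, a splicing factor, read 46.0, 44.0 and 41.5 FPKM against 43.3, 11.2 and 8.60. Cox15, an enzyme of heme A synthesis, read 15.1, 17.7 and 13.9 FPKM against 12.5, 1.27 and 2.63. These genes were near the wild-type level in the 20(OH)7DHC library and low in the other 2 knockout-labelled libraries. Rnft1, a ubiquitin ligase, Rgs2, a regulator of G protein signalling, and Crkl, a signalling adaptor, had the same form, with 20(OH)7DHC ratios of 0.24, -0.12 and 0.62 against values from -2.77 to -1.31. Pdk1, the kinase that restrains pyruvate dehydrogenase, differed in that it was lower in all 3 pairs, at -1.01, -2.80 and -3.46. Ccdc191 had ratios of 1.80, -2.79 and -0.15, and its place rests on the gap to the 20(OH)Cholesterol ratio. Its wild-type values were uneven, at 16.6 FPKM with 20(OH)L3 and 2.08 and 2.85 in the others.

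Atp5e, a subunit of ATP synthase, read 314, 404 and 320 FPKM in wild type and 371, 2989 and 2209.7 FPKM in the knockout-labelled libraries. Ndufc1, a complex I subunit, and Timm13, a chaperone of the mitochondrial intermembrane space, had 20(OH)7DHC ratios of -0.15 and 0.41 against ratios from 1.99 to 2.65. Nkap, a nuclear regulator, read 6.30, 5.33 and 6.76 FPKM against 7.83, 37.9 and 55.5. In these genes the 20(OH)7DHC pair was level and the other 2 knockout-labelled libraries were high. Rpp40, an RNase P subunit, and Emc9, of the membrane protein complex of the endoplasmic reticulum, had the same form, with 20(OH)7DHC ratios of -0.09 and -0.58, and Fggy had -0.76. Saa3, Ccl20 and Chtf18 entered the group the other way, by low values in the knockout-labelled 20(OH)7DHC library.

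Opposite directions past 2-fold were rare: 12 rows were higher with 20(OH)7DHC and lower with both others (0.136%), and 4 the reverse (0.0453%). Spink10, a serine protease inhibitor family member, was of the second kind and read 5.07, 0.330 and 1.40 FPKM in wild type against 0.467, 4.34 and 5.38 in the knockout-labelled libraries. For Spink10 both genotypes moved between sterols, and all values were low. Most rows of opposite direction were noncoding, among them Mir31, listed at 0 in wild type and at 29.9 FPKM in the knockout-labelled library with 20(OH)7DHC. FPKM divides by length, so few fragments of so short an RNA can give a high value.

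**Figure D4:**
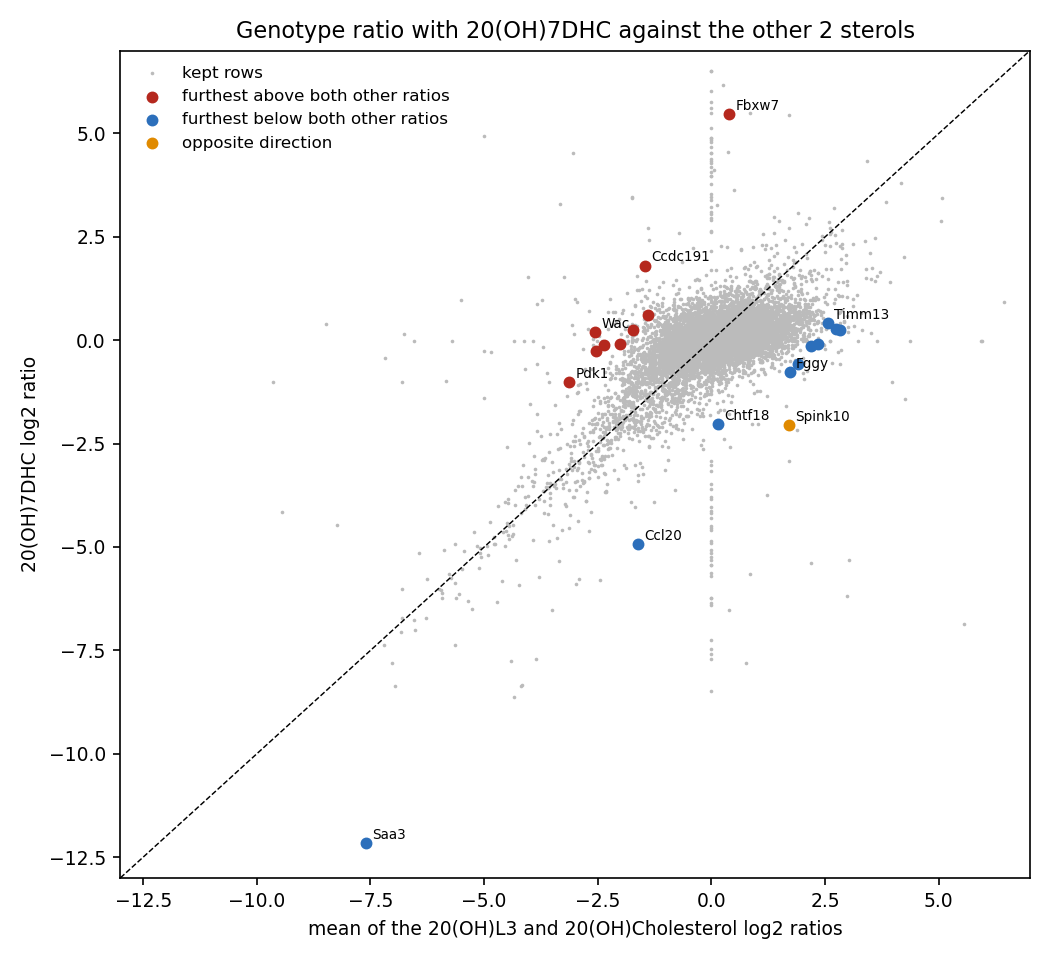
Genotype ratio with 20(OH)7DHC against the mean of the other 2 ratios, for 8829 rows, with some named genes labelled. Fbxw7 lies far above the dashed line of equality and Saa3 and Ccl20 below it. The vertical row of points at 0 holds rows such as the 83 that were listed at 0 in all 4 other libraries.

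**Figure D5:**
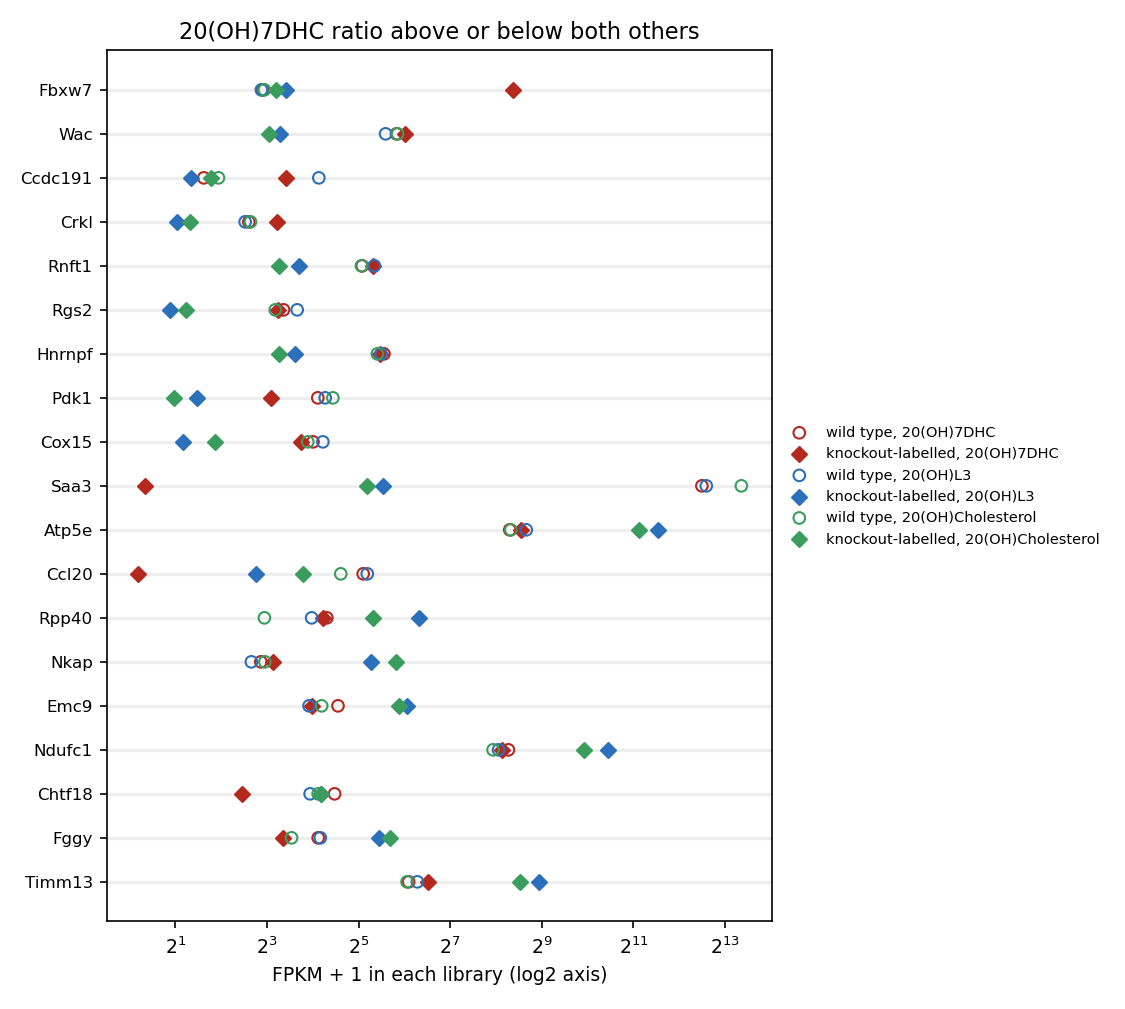
FPKM + 1 on a log2 axis in each of the 6 libraries for the 19 named genes whose 20(OH)7DHC ratio lay furthest above (first 9) or below (last 10) the nearer of the other 2. Open circles are wild type and filled diamonds knockout-labelled. In most rows the red diamond lies among the circles and the blue and green diamonds lie apart.

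Besides the adipocyte and the pericyte and smooth muscle markers given above, whose sums were higher in the knockout-labelled library, 5 other marker lists were read. Of 17 measured keratinocyte markers 5 were kept, with 2 higher and 2 lower past 2-fold. Of these 5, 2 were kept through the knockout-labelled library alone and 1 through wild type alone, so the filter set their directions. Krt5 and Krt14 were below 0.5 FPKM in both libraries. The sum of the 17 was 54.6 FPKM in wild type and 50.7 in the knockout-labelled library. That of 15 leukocyte markers was 17.3 and 9.65, with Ptprc at 0 and 0.0339, that of 9 endothelial markers at most 3.60 in both, with Pecam1 at 0.0540 and 0, that of 12 melanocyte and Schwann markers 8.53 and 10.4, and that of 12 skeletal muscle markers 17.5 and 27.3. The 12 fibroblast markers summed to 8709 and 6022 FPKM. Of 11 kept, 1 of them through wild type alone, 7 were lower past 2-fold and 0 higher, with a median ratio of -1.71. The other pairs had 8 and 7 lower. Vim, the mesenchymal filament protein, read 3097 and 4153, while Dcn, Lum and Thy1 were low in the knockout-labelled library, at 16.6, 0.0400 and 17.6 FPKM against 1148, 10.2 and 195. Y-linked and Xist rows moved with genotype: 4 Y-linked genes summed to 42.1 FPKM in wild type and 0.0521 in the knockout-labelled library, and the row that merges Xist with overlapping genes read 99.1 and 1570 FPKM. Their part and that of cell types in the genotype ratios was not tested.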

How the data were processed

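RNA from 6 cultures was sequenced, and groups follow the genotype and treatment in the labels. A check of the genotype labels and some genes that the naming rule takes are not reported here. The authors deposited FPKM per gene in 1 table of 46958 rows, per the file headers. Tools named in the submitters' processing notes were Cuffdiff, Cufflinks 2.2.1 and STAR 2.5.4b, with the build GRCm38. The annotation and filters were not given in the sources used here, nor was the strand setting, so antisense genes cannot be separated from the genes they overlap.

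From these values, log2(FPKM + 1) ratios were computed for the 2 libraries of each sterol, in Python 3.11.15 with pandas 2.3.3 and statsmodels 0.14.6. The pseudocount understates the ratios of low genes, and against 0 the ratio rests on it. Rows merging several symbols (1061) were left out of counts and lists. Lengths and positions are those of GENCODE M21, which located 8565 of the 8829 rows. The length trend was a lowess curve (fraction 0.3) over protein-coding genes. Depth was estimated from low values, 96.3% to 97.2% of which were whole multiples of 1 fragment within 0.05, against 10% by chance. The steps were tested on simulated data.

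Named genes were protein-coding and not predicted loci: the 12 highest and 12 lowest 20(OH)7DHC ratios, the 10 furthest above and 10 furthest below both other ratios at 1 to 6 kb, opposite directions, 2 at each end of each list, Y-linked genes and defining markers. Other genes were named with their values in view. The genes, lists (40) and rules were chosen with earlier results of these data known. Alternatives were other pseudocounts, filters and scalings, protein-coding rows of at least 300 nt, removal of the length trend and, added later, a filter over all 6 libraries and leaving out either other pair.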

Additional observations from a re-analysis of the deposited data

Results flagged for a closer look

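Spink10 had a genotype ratio of -2.05 with 20(OH)7DHC and ratios of 2.01 and 1.41 with the other sterols, and it stands here because its direction differed between sterols. The difference was not tested, since each group is 1 library.

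Rows that merge several genes stayed out of the counts. Of 643 that reached 5 FPKM in the pair, 57 were higher past 2-fold in the knockout-labelled 20(OH)7DHC library. The share over the 8829 counted rows was 4.72%. Of the 57 rows, 2 are given here, chosen after their values were seen. The row that merges Xist with Gm27733 and Gm27927 read 1570 FPKM there against 99.1 in wild type, and the wild-type libraries themselves ran from 12.3 to 755 FPKM. The row of Klhl15 with Mir7673 read 349 FPKM there and between 0.657 and 1.65 FPKM in the other 5 libraries.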

How the results depend on the processing

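No paired analysis was possible because each genotype is 1 library within a sterol, and the difference described is that within 20(OH)7DHC. Of 63 recomputed answers, 49 stayed within 1.5 times the reported count or within the 95% interval of the median. The count of higher rows was 417, and 258 at a pseudocount of 5 FPKM. Rows past 2-fold with 20(OH)7DHC and not with the others were 301, and 495 at a filter of 1 FPKM, 196 for protein-coding genes of at least 300 nt, 195 with the length trend removed and 471 without the 20(OH)L3 pair. Rows of opposite direction were 16. They were 7 at a pseudocount of 5 FPKM, 25 at a filter of 1 FPKM, 10 at 10 FPKM and 4 among protein-coding genes. They were 61 with the length trend removed, 40 without the 20(OH)Cholesterol pair and 45 without the 20(OH)L3 pair. The median of long genes was 0.06, and 0.093 with median-of-ratios scaling and 0.16 with quantile normalization. Quantile normalization gave 560 higher and 854 lower rows. The cause of these moves was not tested. Of 558 recomputed list counts 533 stayed within these bounds. Of 371 recomputed ratios of named genes, 301 stayed within a 95% counting interval of the ratio and 70 were counted as outside it. Another filter leaves a gene's ratio as it was, so the ratios recomputed under filters stayed by construction. Cxcl10, listed at 0 in the knockout-labelled library, was counted as outside at a filter of 1 FPKM with its unchanged ratio of -8.37. Among those past 2-fold 0 changed direction, but another pseudocount or filter cannot change the direction of a ratio. Only the scalings and the removal of the length trend could have done so. A single library per group, 7800000 to 13400000 estimated fragments and a pseudocount limit what rows near 5 FPKM can show.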

Other observations

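Short noncoding RNAs were frequent among the kept rows listed at 0 in the libraries of the other sterols. Rows were kept by the 20(OH)7DHC libraries alone, so rows seen only with another sterol could not enter for comparison. Of the 8829 rows, 83 were listed at 0 in all 4 libraries of the other sterols, and 41 of these were higher and 33 lower past 2-fold with 20(OH)7DHC. They included 20 miRNA rows, 16 snRNA rows, 14 snoRNA rows and 2 protein-coding rows. Snord49b, a small nucleolar RNA, was listed at 0 in wild type and at 566 FPKM in the knockout-labelled library, and Snord42a at 355 FPKM and 0. FPKM divides by length, so for such short RNAs few fragments can give a high value, and these values are uncertain. Among 63 kept miRNA rows, 27 were higher and 12 lower with 20(OH)7DHC, and of 225 antisense rows 20 were higher and 20 lower. Over all 8829 rows, 4.72% were higher and 10.5% lower.

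Malat1, a long noncoding RNA kept in the nucleus, read 51.6, 69.2 and 75.5 FPKM in wild type and 164.5, 813 and 1112 in the knockout-labelled libraries, so the 20(OH)7DHC ratio of 1.65 was the smallest. Among 643 merged rows that reached 5 FPKM in the pair, 57 were higher and 68 lower. Of the 8829 rows with a single symbol, 4.72% were higher and 10.5% lower. The merged row of Igtp with Irgm2, interferon-induced GTPases, read 74.2 and 0.890 FPKM in the pair. Rows with a miRNA could stand apart in 1 library, as did that of Mir17hg with its 6 miRNAs, at 0.159 and 81.2 FPKM in the pair, and that of Pdgfra with Mir7025, at 170 and 4.12 FPKM. By chromosome, the share of protein-coding genes higher past 2-fold ran from 1.57% on chromosome 15 to 5.15% on chromosome 6.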
